A study of Drosophila melanogaster with 8 samples.

Results

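Small nucleolar RNA (snoRNA) genes and the Uhg genes, noncoding genes that host snoRNAs, were examined for RNA polymerase II (RNAPII) in Drosophila S2 cells. The members are the genes whose names begin with snoRNA: or Uhg in the authors' deposited table and that had a site centred at most 1000 bp from their transcription start site (TSS), each represented by its site of highest mean concentration. This gave 27 genes, 24 snoRNA genes and 3 Uhg genes, of the 4278 genes with a site within that distance. A further 3 snoRNA genes had sites beyond 1000 bp only. The 27 genes lay at 25 separate loci, because the U3 copies snoRNA:U3:54Aa and snoRNA:U3:54Ab shared 1 locus, as did Uhg1 and snoRNA:Me28S-G3081a.

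Chromatin immunoprecipitation and sequencing (ChIP-seq) of RNAPII was carried out in S2 cells depleted of the linker histone H1 (labelled KD H1) and in control cells treated against LacZ, a bacterial gene. S2 is an established embryonic fly line with hemocyte-like properties, and no other genotype, treatment or time is given in the labels. There were 2 RNAPII libraries and 2 input libraries per condition, 8 in all. Whether the replicates are separate cultures is not in the labels. The p-values therefore reflect the spread of 2 against 2 libraries, which may be technical. The files hold 1 mean per condition and site, so no spread between replicates and no depth per library can be given. Concentrations are log2 means over libraries, on the authors' scale, and a fold is the H1 knockdown concentration minus the LacZ concentration. A mean over a culture cannot tell fewer bound cells from less RNAPII per cell. Of 10 hemocyte genes, 8 had a site within 1000 bp of the TSS, NimC1 and Sr-CI being the exceptions, against 3 of 8 genes of neurons, muscle, fat body and germline. Occupancy is not a transcript level, so this is a loose check of the label.

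snoRNAs are short nuclear RNAs that pair with ribosomal RNA. Box C/D snoRNAs, named Me here, guide methylation of the ribose, and box H/ACA snoRNAs, named Psi, guide the conversion of uridine to pseudouridine. Those named Or were named as orphans, without an assigned target, though a later annotation may give one. Most fly snoRNAs are cut from introns of a host transcript, and so share the promoter of the host gene. Hosts include many genes of the translation apparatus, other protein-coding genes, and the Uhg genes, whose spliced product has no known coding role. The U3 snoRNA, which is needed for the early cleavages of the 18S rRNA precursor, is instead made by RNAPII from genes of its own.

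RNAPII concentration was high at most of the 27 genes, and nearly all values were close to each other in the H1 knockdown and LacZ cells. The median concentration was 9.58, against 8.51 over all 4278 genes, and 14 of the 27 lay in the top decile of all genes. Concentration is not scaled to site width. Per kb of site the median was 9.39 on the log2 scale, against 9.31 over all genes, and 15 of the 27 were above the latter. The median fold was 0.06 (range -0.10 to 0.87), against 0.16 over all genes, and 20 of the 27 folds were above 0, against 93.5% of all genes. The mix of sites differs, since 63.0% of member sites were annotated at promoters, against 91.5% over all genes. Of the 17 member sites at promoters, 16 had folds above 0 (94.1%), against 94.2% of promoter sites over all genes. Of the 10 annotated at transcription termination sites, 4 did (40.0%), against 85.8% of such sites over all genes. In the authors' deposited table, made with DiffBind, 0 members had an FDR under 0.05, as was true of all 4278 genes (0.0%), and the FDR of every member was 1. By the authors' call at an unadjusted p under 0.05, 1 member, snoRNA:Psi18S-301, was higher and 0 were lower. This is 3.70% of members, against a background of 6.76% called higher and 0.0234% called lower. The other 26 folds lay between -0.10 and 0.23, with p-values of 0.188 or more.

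**Figure D1:**
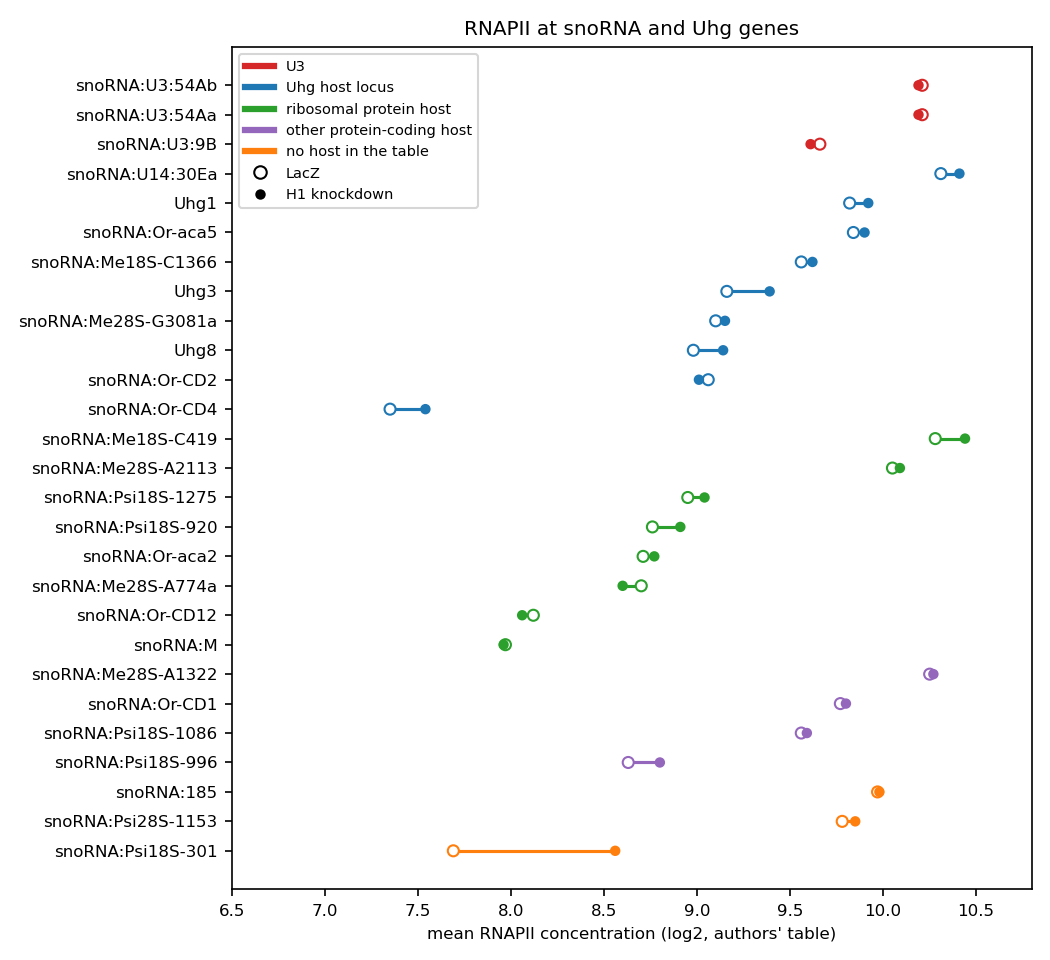
Mean RNAPII concentration (log2, authors' table) at each of the 27 genes, open circles for LacZ and filled circles for H1 knockdown, coloured by the kind of host; there are no error bars because the files hold 1 mean per condition. The 2 circles nearly coincide for most genes, and snoRNA:Psi18S-301 has the widest gap, from 7.69 to 8.56.

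The name of a site was often only 1 of several it could carry. Of the 27 sites, 17 were annotated at a promoter, and 9 of these were at the promoter of a gene that is neither a snoRNA nor a Uhg gene. The 8 genes so annotated were mtDNA-helicase, rdgBbeta, CG12863, CG5199, CG13334, CG42553, CG11597 and bys. The other 10 were annotated as transcription termination sites (TTS), 37.0% of members against 3.95% of all genes. The snoRNA genes span 55 to 213 bases in Release 6 and their sites at least 354 bp. Where a site covers one, it is near its start and its end at once, and the label does not separate these. Of the 10 TTS sites, however, 5 lay wholly downstream of the snoRNA start. Those at snoRNA:Or-CD12, snoRNA:Or-CD4, snoRNA:Or-CD2 and snoRNA:M were annotated at RpL28, Uhg5, Uhg4 and rush. Why the TTS label was more frequent among members was not tested. At 2 loci an overlapping entry bore the name of a gene that is no member, RpS29 at snoRNA:Psi18S-1275 and rdgBbeta at Uhg1. A gene whose annotated span contains a member is called its host here, without regard to strand or intron. Of the 17 hosts of members, 10 had no site under their own name within 1000 bp. Among them were RpL15, RpL30, RpS6, eEF1alpha1, Uhg2, Uhg4 and Uhg5. A site named for a snoRNA may therefore be that of its host or of a neighbour.

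The locus shared by snoRNA:U3:54Aa and snoRNA:U3:54Ab carried some of the most enriched RNAPII peaks of the data. At the shared U3:54A locus (2R, 13030078 to 13031574 in dm3), the authors' deposited table gave a LacZ concentration of 10.21 and an H1 knockdown concentration of 10.19. Its fold was -0.02 with p = 0.872 in the authors' deposited table. Occupancy there was thus nearly equal in both conditions. The enrichment over input ranked 4 of 6885 LacZ peaks (85.0-fold) and 6 of 7472 H1 knockdown peaks (83.1-fold), each within its own list and as given by the authors. A second site (13032884 to 13034222) had its summit 2120 bp away, with a concentration of 9.97 and a fold of -0.01 in the authors' deposited table. The LacZ and knockdown entries of each of the 2 sites bear the names of different U3 copies, so values cannot be assigned to one copy. How reads were shared between the copies was not measured.

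The X-linked copy snoRNA:U3:9B (10241908 to 10242698) had concentrations of 9.66 in LacZ and 9.61 in H1 knockdown cells in the authors' deposited table. The fold was -0.06 with p = 0.728 in the authors' deposited table. Per kb of site its concentration was 9.98 on the log2 scale, rank 3 of all 4278 genes. Its enrichment was only 11.5-fold in the LacZ list although its summit pileup was 6240, near the 7700 at the U3:54A locus. Pileup divided by enrichment, a measure of the control level the peak caller set, was 541 at U3:9B and 90.6 at the U3:54A locus in the LacZ list, whose median over peaks was 95.1. In the H1 knockdown list these values were 641, 110 and 93.9. The part of this high control level in the fold was not tested. All 3 U3 folds were below 0, where 93.5% of all genes were above 0. Those of snoRNA:U3:54Aa and snoRNA:U3:54Ab came from the same locus, so they are not separate values. At its closest site, on Uextra, snoRNA:U3:54Aa had a fold of 0.02. None of the differences was larger than the spread between libraries by the authors' test.

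Uhg loci held 9 members, with a median fold of 0.09 and 8 of 9 folds above 0 (88.9%, against 93.5% of all genes). Uhg3 had the highest fold of these (2L, 20647098 to 20648253): 9.16 in LacZ and 9.39 in H1 knockdown cells, a fold of 0.23 with p = 0.188 in the authors' deposited table. Uhg8 had 8.98 in LacZ and 9.14 in H1 knockdown cells, with a fold of 0.17 and p = 0.318 in the authors' deposited table. Uhg1, with 16 snoRNA genes in its span, had 9.82 and 9.92, a fold of 0.10 with p = 0.499 in the authors' deposited table. None of the 3 differed beyond the spread between libraries, and folds above 0 were the rule over all genes (93.5%).

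Uhg2, Uhg4 and Uhg5 appeared only through the snoRNAs inside them. At Uhg2 the site was named for snoRNA:U14:30Ea, a copy of the conserved box C/D snoRNA U14, and annotated at the promoter of mtDNA-helicase. The concentration of this site was the highest of all members, with 10.31 in LacZ and 10.41 in H1 knockdown cells in the authors' deposited table. It was level with the site at snoRNA:Me18S-C419 in mean concentration (10.36 each). These sites are wide, 2317 and 2520 bp. Per kb they had 9.15 and 9.03 on the log2 scale, under the median of 9.31 over all genes. The fold at snoRNA:U14:30Ea was 0.09 with p = 0.515 in the authors' deposited table. At Uhg4 the site named for snoRNA:Or-aca5 had a fold of 0.06, from 9.84 to 9.90, in the authors' deposited table. At Uhg5 the site named for snoRNA:Me18S-C1366 had the same fold, 0.06, from 9.56 to 9.62, in the authors' deposited table. This Uhg5 site was annotated at the promoter of CG12863 and enriched 42.6-fold in the LacZ list, rank 67.

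Both Uhg4 and Uhg5 had a second, weaker site annotated at their termination sites. At Uhg4 it was named for snoRNA:Or-CD2, enriched 1.94-fold in the LacZ list, with concentrations of 9.06 in LacZ and 9.01 in H1 knockdown cells and a fold of -0.05 in the authors' deposited table. Its pileup over enrichment was 261 in the LacZ list, so the control level was high there too. At Uhg5 it was named for snoRNA:Or-CD4, enriched 2.00-fold, with the lowest concentration of all members, 7.35 in LacZ and 7.54 in H1 knockdown cells, and a fold of 0.19 with p = 0.360 in the authors' deposited table. The 2 far sites thus had folds of different sign while the 2 near sites had equal ones, and none of the 4 differed beyond the spread between libraries. No site was named for Uhg7.

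Ribosomal protein genes hosted 8 members, with a median fold of 0.05 and 5 of 8 above 0. The site named for snoRNA:Me18S-C419 in RpL15, in the heterochromatin of chromosome 3 (3LHet, 2397503 to 2400022), was the widest of all members with 2520 bp. It had 10.28 in LacZ and 10.44 in H1 knockdown cells, a fold of 0.17 with p = 0.252 in the authors' deposited table. snoRNA:Me28S-A2113 in RpL30 had 10.05 and 10.09, a fold of 0.04 in the authors' deposited table. The sites at snoRNA:Psi18S-920 in RpL10Ab, snoRNA:Psi18S-1275 in RpS29 and snoRNA:Or-aca2 in RpS6 had folds of 0.15, 0.08 and 0.06 in the authors' deposited table. All 3 were annotated at promoters, those of CG11597, snoRNA:Psi18S-1275 itself and bys, not those of the hosts.

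The 3 negative folds of this class were all at sites that lay wholly downstream of the snoRNA start. They were -0.10 at snoRNA:Me28S-A774a in RpS12 (8.70 in LacZ, 8.60 in H1 knockdown cells; p = 0.581), -0.06 at snoRNA:Or-CD12 in RpL28 (8.12 and 8.06; p = 0.751) and -0.01 at snoRNA:M in sta (7.97 and 7.96; p = 0.983) in the authors' deposited table. The site at snoRNA:M was annotated at the termination site of rush, a neighbouring gene, and not of sta. Its overlapping H1 knockdown entry had a fold of 0.01 with p = 0.975 in the authors' deposited table, so the sign there depends on the entry. In the LacZ list the sites at snoRNA:Me28S-A774a, snoRNA:Or-CD12 and snoRNA:M were enriched 2.99-, 2.65- and 2.36-fold, against a median of 3.03 over peaks. The promoter sites of these 3 hosts had higher concentrations and folds above 0. RpS12 had a concentration of 10.09 and a fold of 0.14, RpL28 9.82 and 0.07, and sta, a gene of the small ribosomal subunit, 9.35 and 0.07 in the authors' deposited table. Whether the fold differs between these promoter sites and the snoRNA sites was not tested, since the files hold no value per library.

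Other protein-coding genes hosted 4 members, all with folds above 0 and a median of 0.03. The site at snoRNA:Me28S-A1322 in eEF1alpha1, which encodes translation elongation factor 1 alpha, had 10.25 in LacZ and 10.27 in H1 knockdown cells, a fold of 0.02 in the authors' deposited table. snoRNA:Psi18S-1086, in the splicing factor gene Sf3b3, had 9.56 and 9.59, a fold of 0.03 there. snoRNA:Psi18S-996 in Tudor-SN had 8.63 and 8.80, a fold of 0.18 with p = 0.272 in the authors' deposited table. The promoter of Tudor-SN itself, at a separate site, had a fold of 0.12 in the authors' deposited table.

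snoRNA:Or-CD1, which the Release 6 table calls snoRNA:Me18S-C1968, had a higher concentration than the promoter site of Swim, whose annotated span contains the snoRNA. The snoRNA start was placed on the minus strand at 18084879, and the Swim promoter site lies at lower coordinates (18080418 to 18080782). Swim was taken as the host by position alone, so the snoRNA may not be cut from a Swim transcript. The authors' deposited table gave 9.77 in LacZ and 9.80 in H1 knockdown cells at the snoRNA (2R, 18084135 to 18085236), with a fold of 0.03 and p = 0.828. The Swim promoter site had a mean concentration of 7.75 and a fold of -0.01 in the authors' deposited table. It is 365 bp wide, against 1102 bp at the snoRNA, and concentration is not scaled to width. Per kb the snoRNA site had 9.65 on the log2 scale. It was enriched 53.6-fold in the LacZ list, rank 22, with its summit 66 bp downstream of the snoRNA start.

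Besides the U3 genes, no host was found in the table for 3 members. snoRNA:185 lies among transfer RNA genes in the Release 6 annotation. Its site (2R, 15613819 to 15615070) had 9.97 in LacZ and 9.98 in H1 knockdown cells and a fold of 0.01 with p = 0.928 in the authors' deposited table. It was enriched 59.8-fold in the LacZ list, rank 16, and 78.7-fold in the knockdown list, rank 9. snoRNA:Psi28S-1153, at the promoter of CG13334, had 9.78 and 9.85, a fold of 0.07 in the authors' deposited table.

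snoRNA:Psi18S-301 was the exception among the 27 genes. Its site (3R, 16400335 to 16400897) had 7.69 in LacZ and 8.56 in H1 knockdown cells, a fold of 0.87 or a 1.83-fold ratio, with p = 0.0192 in the authors' deposited table, where its FDR was 1. Of the 25 member loci it was the only one with a peak in the H1 knockdown list alone, where it was enriched 4.96-fold. The other 24 had peaks in both lists. How common either kind of locus is over all genes was not counted. The site entered the table only through the condition in which it is high, so the knockdown peak, the fold and its p are not separate evidence. Among the 4278 genes the fold ranked 4 and the p 97, as a description. The LacZ concentration was nevertheless above that of 24.2% of LacZ peaks. Genes of its concentration decile had a median fold of 0.22. In Release 6 the snoRNA gene neighbours TFAM, which encodes the mitochondrial transcription factor A, and 0 entries of the authors' deposited table were named for TFAM. A promoter site shared between them cannot be told apart by name.

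Folds were lower at higher concentration across all genes, and the members were set beside this. The median fold over all genes was 0.31 in the lowest decile of concentration, 0.16 in the sixth, 0.06 in the ninth and 0.09 in the top decile. Among the members, 19 of 27 had a fold under the median of their own decile. The 14 members of the top decile had a median of 0.04, and only 2 of them, Uhg1 and snoRNA:Me18S-C419, exceeded the 0.09 of that decile. Uhg3 and Uhg8 were above theirs, with 0.23 against 0.06 and 0.17 against 0.09. These are descriptions with no test, since the members were chosen with earlier results known and several share a locus.

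**Figure D2:**
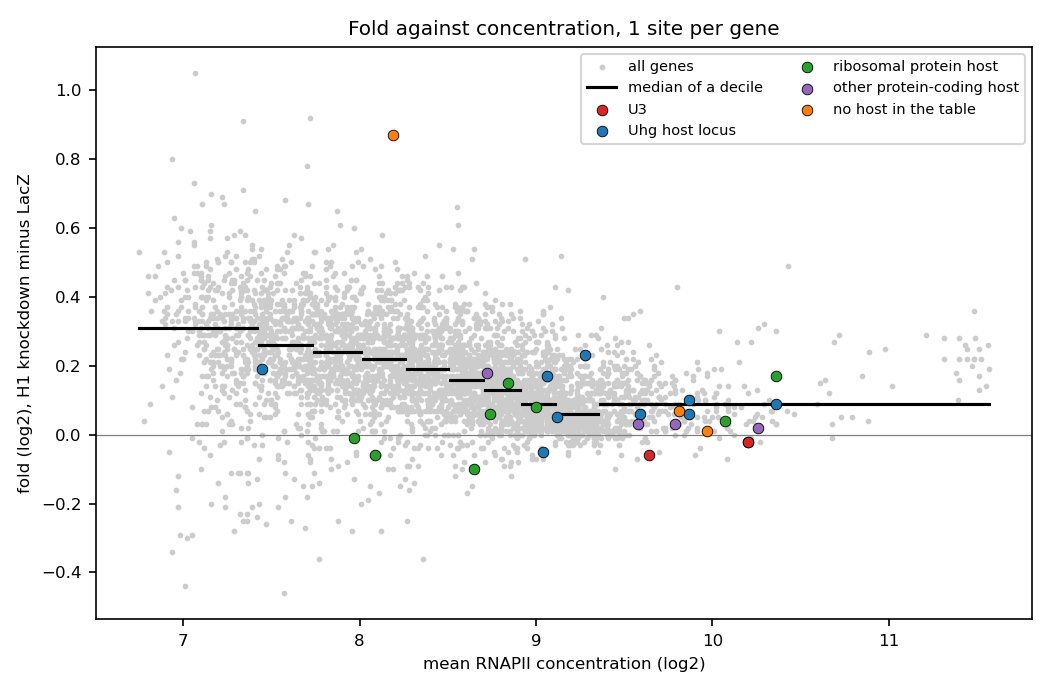
Fold (log2, H1 knockdown minus LacZ) against mean concentration (log2) for 4278 genes at 1 site each, grey; black bars are medians of deciles of concentration and coloured points are the 27 members by kind of host. Medians run from 0.31 in the lowest decile to 0.09 in the top decile, most members lie at the right near 0, and snoRNA:Psi18S-301 lies apart at 0.87.

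Summits sat at nearly the same base in both conditions. Of the 24 loci with peaks in both lists, 6 had the summit at the identical base and 17 within 10 bp, and the largest distance was 126 bp, at snoRNA:Or-CD12. The position of the gene start could be worked out for 20 members from the distances the authors' annotation gives for 2 or more entries of a gene (tolerance 2 bp). Of these, 10 had the summit upstream of the start and 10 downstream, and the site covered the start in 14.

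Of the 10 upstream summits, all but that of snoRNA:Psi28S-1153 belonged to snoRNAs inside a host. Relative to the start, the summit lay at -946 bp for snoRNA:Me28S-A1322 in eEF1alpha1, at -860 bp for snoRNA:Psi18S-996, at -684 bp for snoRNA:U14:30Ea in Uhg2 and at -663 bp for snoRNA:Me18S-C419 in RpL15. Summits at the start itself, 3 to 104 bp downstream, belonged to Uhg8, Uhg3, snoRNA:185, snoRNA:Or-CD1 and snoRNA:U3:9B, whose folds ran from -0.06 to 0.23 with a median of 0.03. The remaining 5 sites lay wholly downstream of the start, with summits 266 bp away at snoRNA:Or-CD12 to 995 bp away at snoRNA:M. Their median fold was -0.05 (range -0.10 to 0.19), against 0.06 over the 14 sites that cover the start (range -0.06 to 0.23).

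**Figure D3:**
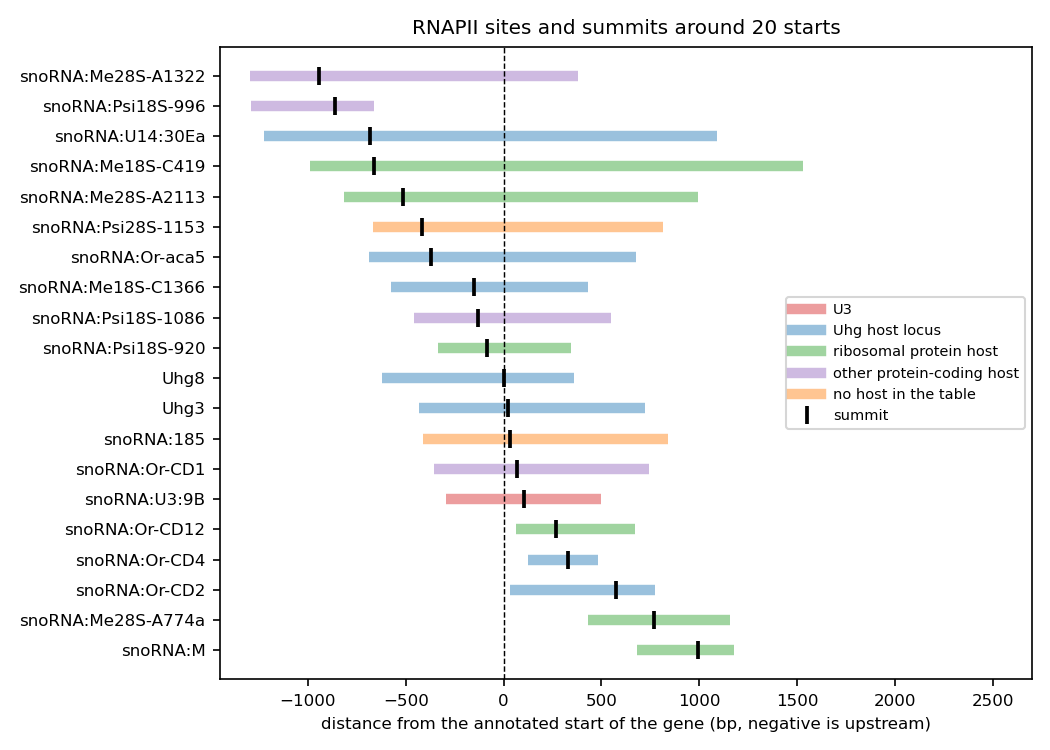
Extent (bars) and summit (black ticks) of the RNAPII site at 20 members, as distance in bp from the annotated gene start, negative values upstream, coloured by kind of host. The 10 genes at the top, 9 of them hosted snoRNAs, have summits as far upstream as -946 bp, 5 genes in the middle have summits 3 to 104 bp downstream, and the 5 lowest sites do not reach the start.

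Since hosted snoRNAs depend on the promoter of the host, all hosts in the Release 6 table were then listed. Of its 257 snoRNA genes, 246 lay within the span of a longer gene, 97 such genes in all, without regard to strand or intron. Of these hosts, 64 had a site of their own within 1000 bp, and their median fold was 0.10 (range -0.01 to 0.50), with 62 above 0. Their median concentration was 9.11, against 8.51 for all genes, and 33 of the 64 had a fold under the median of their concentration decile. The 25 ribosomal protein hosts had a median of 0.08 (0.00 to 0.15), with 15 under the median of their decile, and the 36 other hosts outside the Uhg genes one of 0.11. At an unadjusted p under 0.05, 1 host was called higher, 1.56% against the background of 6.76%. It was Pi4KIIalpha, a phosphatidylinositol kinase gene, with a concentration of 7.40, a fold of 0.50 and p = 0.0184 in the authors' deposited table.

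Of 11 hosts with 7 or more snoRNA genes, 8 had a site, and 5 of these had a fold under the median of their concentration decile. RpS5a, with 14, had a fold of 0.02, dom, a chromatin remodeler gene with 15, one of 0.03, and Arpc2, an actin nucleation gene with 17, one of 0.11 in the authors' deposited table. Nop60B, which encodes the pseudouridine synthase of box H/ACA particles and holds 7 snoRNA genes itself, had 0.05, and RpS7, also with 7, had 0.03 in the authors' deposited table. The 3 above their decile's 0.09 were kra, with 8 snoRNA genes (0.12), Hrb98DE, with 7 (0.12), and Uhg1 (0.10). The limit of 7 was chosen after the values were seen.

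**Figure D4:**
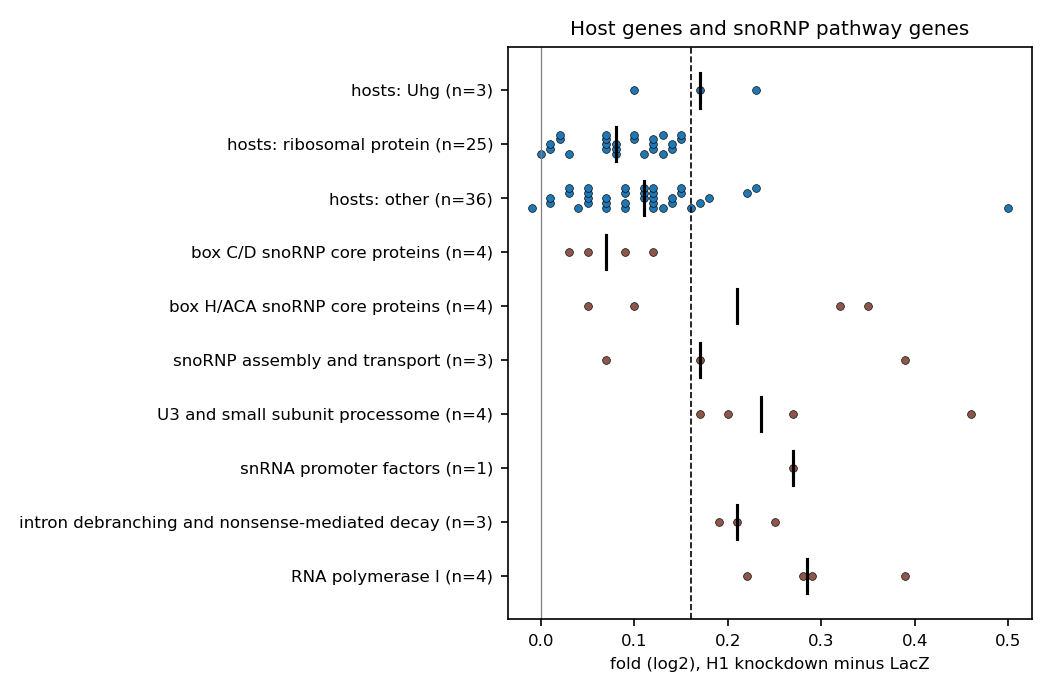
Fold (log2, H1 knockdown minus LacZ) of host genes by kind (blue) and of snoRNP and ribosome biogenesis genes by list (brown), 1 point per gene with a site within 1000 bp, black bars at medians, dashed line at the median of all genes, 0.16. Ribosomal protein hosts lie from 0.00 to 0.15 at a median concentration of 9.01, and RNA polymerase I genes from 0.22 to 0.39 at 8.18, so the line is not matched to either group's concentration.

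The proteins that package and use snoRNAs were compared last. Of 40 genes in 7 lists, 39 were matched and 23 had a site within 1000 bp, and all 23 folds were above 0, with a median of 0.21 and a median concentration of 8.04. Of the 23, 12 had a fold under the median of their concentration decile. By DiffBind 0 had an FDR under 0.05, and 2 were called higher at an unadjusted p under 0.05, 8.70% against the background of 6.76%. The 4 core proteins of box C/D particles had the lowest median, 0.07. The methyltransferase gene Fib had a fold of 0.03, Nop56 0.09, nop5 0.12 and hoip 0.05, at concentrations from 8.57 to 10.73 in the authors' deposited table.

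The 4 core genes of box H/ACA particles had a median of 0.21. NHP2 (0.35, p = 0.109) and CG4038, the fly Gar1 gene (0.32, p = 0.0716), had larger folds in the authors' deposited table than CG7637, the Nop10 gene (0.10), and Nop60B (0.05). The first pair had concentrations of 7.24 and 8.10, the second pair 9.37 and 9.02. Among assembly factors, pont, an ATPase gene of the R2TP complex, had a fold of 0.39 with p = 0.0528, CG10341 0.17 and Nopp140 0.07 in the authors' deposited table. The other 6 genes of that list had no such site.

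Of the U3 and small subunit processome genes, 4 of 8 had a site, with a median of 0.24. The largest was CG11920, the Imp4 gene, from 8.03 in LacZ to 8.48 in H1 knockdown cells, a fold of 0.46 with p = 0.00711 in the authors' deposited table, where its FDR was 1. CG4866 had 0.27 and wcd 0.20 there. RNA polymerase I genes had sites at all 4, with a median of 0.29, led by RpI1, the largest subunit, with 8.15 in LacZ and 8.54 in H1 knockdown cells, a fold of 0.39 and p = 0.0232 in the authors' deposited table. Tif-IA had 0.28, RpI12 0.29 and RpI135 0.22 in the authors' deposited table, the last under its decile's 0.26. Decay and debranching genes had a median of 0.21 over 3 of 7 genes (Smg5 0.25, Upf1 0.19, Smg6 0.21), and of 4 snRNA promoter factors only Tbp had a site, with a fold of 0.27 in the authors' deposited table.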

How the data were processed

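The authors deposited 1 annotated table and 2 peak lists. The submitters' processing notes name Bowtie2 2.2.2, the dm3 genome, MACS 1.4.2, DESeq2 and DiffBind 2.10.0, without settings, whereas the column and peak names say MACS2. The authors' log2 concentrations, log2 folds, p-values and FDR were copied from the table; how libraries were scaled is not stated in the labels or headers. Fold and concentrations matched to within 0.01. Per the file headers, peaks carry a fold enrichment ratio over input, a pileup signal, a −log10 q (lowest 1.30) and a score; by their names, the peaks come from pooled libraries, 1 pool per condition. The score was not used.

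Here, loci were formed from entries sharing 1 bp or more, sites were selected by distance, and gene starts were solved from the annotation's distances, a step tested on simulated data. Hosts and symbols came from a Release 6 gene table, used for names and neighbours only. The planned fit across libraries was not run, as the files used hold no value per library, and no promoter sequence was used here. The members, lists and tests were chosen with earlier results of these data known. Genes to be named were all Uhg and U3 genes, member loci with extreme fold, concentration or p, and up to 3 genes of smallest p per list; the other members, hosts and list genes named were added after their values were seen. Python 3.11.15 with numpy 2.4.6, pandas 2.3.3 and matplotlib 3.10.9 was used.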

Additional observations from a re-analysis of the deposited data

Results flagged for a closer look

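Signal outside the sites used above occurred at 1 locus named for a snoRNA gene and called higher by the authors at an unadjusted p under 0.05. Over the whole table, 573 of 14357 entries were called higher in this way, and 0 had an FDR under 0.05. On the unplaced scaffold collection Uextra, an entry from 22084843 to 22085458 was named for snoRNA:U3:54Aa although its distance to that start was -85624 bp, and it was annotated in an intron of a pre-rRNA gene. The authors' deposited table gave it 8.36 in LacZ and 8.74 in H1 knockdown cells, a fold of 0.38 with p = 0.0386. The overlapping LacZ entry (22084952 to 22085380) had a fold of 0.36 with p = 0.0454 in the authors' deposited table. Pileup over enrichment was 303 and 263 there, against list medians of 93.9 and 95.1, and its part in the fold was not tested. The Uextra entry at the start of a U3:54Aa copy (22170513 to 22170987) had a concentration of 8.17 and a fold of 0.02 in the same table.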

How the results depend on the processing

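The median fold of the members, 0.06, was 0.05 to 0.06 under every alternative run: the site closest to the TSS, the mean of all sites of a gene, a limit of 500 bp (24 genes), no limit (30 genes), 1 value per locus, only members at or above the median concentration of all genes (23), and, chosen after seeing the data, without U3 or with loci named for 1 gene only. Members called at an FDR of 0.05 were 0, also at an FDR of 0.1, with 500 bp and with the closest site. At an unadjusted p under 0.05 there was 1, also with 1 value per locus. The 25 loci, and the 24 with peaks in both lists, did not change with an overlap of at least 50% of the shorter interval, and the 24 not with a −log10 q of at least 2. Of single folds, snoRNA:U3:54Aa became 0.02 with the closest site, its copy on Uextra, and snoRNA:M became 0.23 with no limit, at a site 1879 bp away; the construction of both alternatives, another site, gives the change. No paired analysis was possible because the files hold no values per library, and for the same reason no library could be left out. Just inside the limit lay snoRNA:Psi18S-996 (977 bp, fold 0.18) and snoRNA:M (972 bp, 0.01), and just outside snoRNA:Me28S-U2134a (1015 bp, -0.20). Depth per library is unknown here, so small folds cannot be given an interval.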

Other observations

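Of the 87 entries named for snoRNA or Uhg genes, 35 lay beyond 1000 bp. Of these, 18 were named for U3 genes and 12 for snoRNA:Psi28S-2996, at 1528 to 35716 bp from its start. Folds at the 12 ran from -0.28 to 0.07, with 10 under 0 and no p under 0.142 in the authors' deposited table. Over the whole table, 4243 of 14357 entries had folds under 0. Several of the 12 are overlapping LacZ and H1 knockdown entries of 1 locus, such as those with -0.24 and -0.25, so they are not separate values. Enrichment at the 12 was low, from 1.28-fold to 1.81-fold. The 2 entries of this gene with folds above 0 were annotated at the termination site of RpL5 and the other 10 between genes. No explanation of these values was tested.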
